A study of Bos taurus with 20 samples.

Results

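The theca layer (TH) of bovine antral follicles was compared with mural granulosa cells (GC), the cells that line the follicle wall on its inner side. The comparison held the 4 arrays titled as theca cells and the 4 arrays titled as granulosa cells, which made 8 of the 20 arrays of the series. The other arrays held cumulus cells (CC), CC after 4 h of in vitro maturation, and oocytes, with 4 arrays each. They were used as context, and those of CC and oocytes also entered the estimate of the spread.

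Ovaries were collected from cattle after slaughter, and follicles of 3 to 6 mm were punctured. GC were parted from the cumulus-oocyte complexes of the aspirate, and TH were obtained by scraping the wall that remained. The labels put all 8 samples at the immature stage and name no treatment, genotype, breed, or age, and no sorting step is given for either cell type in the sources used here. The scraped wall may therefore hold any cell type of the wall, and the GC samples any cell of the aspirate. The study calls the arrays of a group biological replicates, but how many animals or follicles stand behind an array is unknown here. In such bulk samples, fewer cells of a type and less RNA per cell cannot be told apart.

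The ovarian follicle makes oestradiol in a division of labour between these layers. Theca cells take up cholesterol and, under luteinizing hormone (LH), turn it into androgens, which cross the basal lamina to the granulosa cells, where aromatase converts them into oestrogens under follicle-stimulating hormone (FSH). Blood vessels, pericytes, and immune cells belong to the theca side of the lamina, whereas the granulosa layer is an avascular epithelium that secretes inhibins, activins, follistatin, and anti-Müllerian hormone.

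Each sample was hybridized in 1 colour to a custom bovine Agilent array with 61325 non-control probes, which gave 22550 genes or transcripts. The level of a gene was its log2 intensity after subtraction of the array's 75th percentile, so 0 is the level at that percentile and a difference of 1 between TH and GC is a doubling. Levels of different genes were not set against each other, because probes differ in brightness. The share of probes flagged as well above background ran from 56.7 to 61.8% over the 8 arrays, no spot was saturated, and arrays of the same group correlated over genes at 0.975 to 0.992 (Pearson's r). Values are given for replicates 1, 2, 3, and 4 in this order, standard errors (SE) and adjusted p-values come from limma, and a gene was called at an adjusted p under 0.05. Replicates 1 and 2 of both groups shared a slide, and so did replicates 3 and 4.

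The labels were checked on 5 genes, CYP17A1 (chr26:23694362-23700404 on the UMD 3.1 assembly), INSL3 (chr7:5252672-5254252), COL1A1 (chr19:37088246-37104998), FSHR (chr11:31110744-31305197), and CYP19A1 (chr10:59227895-59282939), with the gene spans taken from the array files. Each was read by probes of 60 bases. The first 30 bases of the probes of CYP17A1 and FSHR, the enzyme and the receptor that set the layers furthest apart in this check, are shown as the files list them, and no part of them is marked.
CYP17A1 probe 1: aatgaattgctgaatgaaatccttgaaaaa
CYP17A1 probe 2: accaggattcaaagctgctttcaaatagac
FSHR probe 1: tatggataagaaaggcaaggccatgggact
FSHR probe 2: gtgtggcggagcagaaattctattaatgat
FSHR probe 3: aatatgccatggaagagctgacagagcact
FSHR probe 4: ggcacatccataaggtaaattggtcagaaa

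CYP17A1 probe 1 was well above background on the 4 TH arrays and on no GC array, so no difference is given for it. TH exceeded GC by 6.26 (SE 0.61) on CYP17A1 probe 2, which was well above background on 1 GC array, and GC exceeded TH by 5.55 (SE 0.33), 5.23 (SE 0.46), 5.59 (SE 0.38), and 5.39 (SE 0.33) for FSHR probes 1 to 4. The 4 FSHR probes thus pointed the same way. FSHR probes 1 and 2 belong to another annotated transcript than probes 3 and 4. The pair of INSL3 probes differed more between each other, with TH above GC by 2.38 (SE 0.44) on INSL3 probe 1 and by 3.88 (SE 0.43) on probe 2.

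CYP17A1, the enzyme that makes androgens, stood at 0.01, −0.51, −0.81, and 0.45 on the TH arrays and at −6.44, −5.09, −6.10, and −6.85 on the GC arrays, of which only replicate 2 was well above background. All TH arrays lay above all GC arrays, with a difference of 5.90 (SE 0.54, adjusted p = 9.4e-07). INSL3, a peptide hormone of theca cells, stood at 8.86, 8.20, 8.72, and 7.90 in TH and at 4.39, 6.23, 5.96, and 4.57 in GC. The groups did not overlap, GC replicates 2 and 3 were the higher of the GC arrays, and the difference was 3.13 (SE 0.43, adjusted p = 5.5e-05). FSHR, the FSH receptor, was at −3.94, −2.74, −3.85, and −2.62 in TH and at 2.47, 1.50, 2.39, and 2.15 in GC, so that GC was higher on every array, by 5.41 (SE 0.34, adjusted p = 2.3e-08). CYP19A1, the aromatase, was at −5.52, −6.25, −5.80, and −3.83 in TH, well above background on 2 of 4 arrays, and at −1.19, −1.42, −2.33, and 1.54 in GC. Replicate 4 was the highest array in both groups, the groups did not overlap, and GC was higher by 4.50 (SE 0.74, adjusted p = 2.9e-04). COL1A1, a chain of the main fibrillar collagen of connective tissue, was higher in TH by 4.07 (SE 0.50, adjusted p = 1.9e-05). CYP17A1, INSL3, and COL1A1 were thus higher in the arrays labelled TH, and FSHR and CYP19A1 in those labelled GC.

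**Figure D1:**
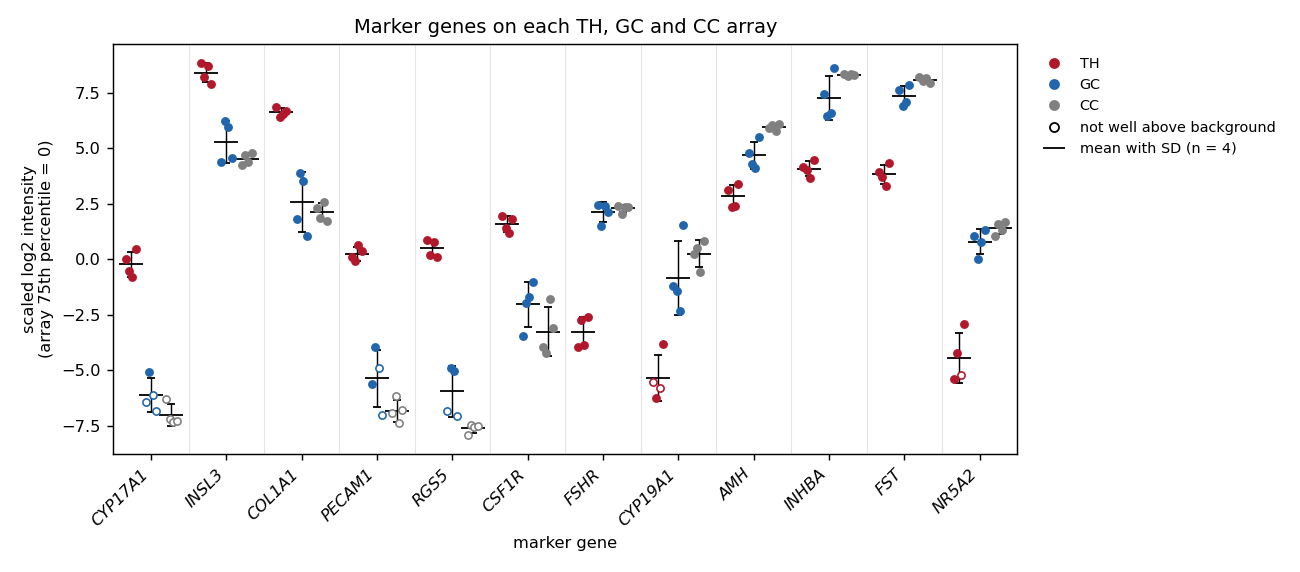
Scaled log2 intensity of 12 marker genes on the 4 TH, 4 GC, and 4 CC arrays (points; open points were not well above background; bars, mean ± SD). The 6 markers of theca, vessels, and leukocytes on the left lie higher on all TH than on all GC arrays, and the 6 granulosa markers on the right lie lower.

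Over all 22550 genes, 5938 (26.3%) were called between TH and GC by limma, 2671 (11.8%) higher in TH and 3267 (14.5%) higher in GC. With a difference of at least 1 required as well, 2080 genes (9.22%) were higher in TH and 1797 (7.97%) in GC. The 4 TH arrays did not overlap the 4 GC arrays in 6852 genes (30.4%). The median difference of all genes was −0.225, and 271 of the genes higher in TH were well above background on all TH arrays and on no GC array, against 104 in the opposite direction. The split between the directions depended on the scaling, since 55.9% of the calls were higher in TH when the percentile was taken over probes detected on all arrays, against 45% here. Within the slide of replicates 1 and 2 alone, 1328 genes were higher in TH and 936 in GC, and within the slide of replicates 3 and 4, 1626 and 1188.

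**Figure D2:**
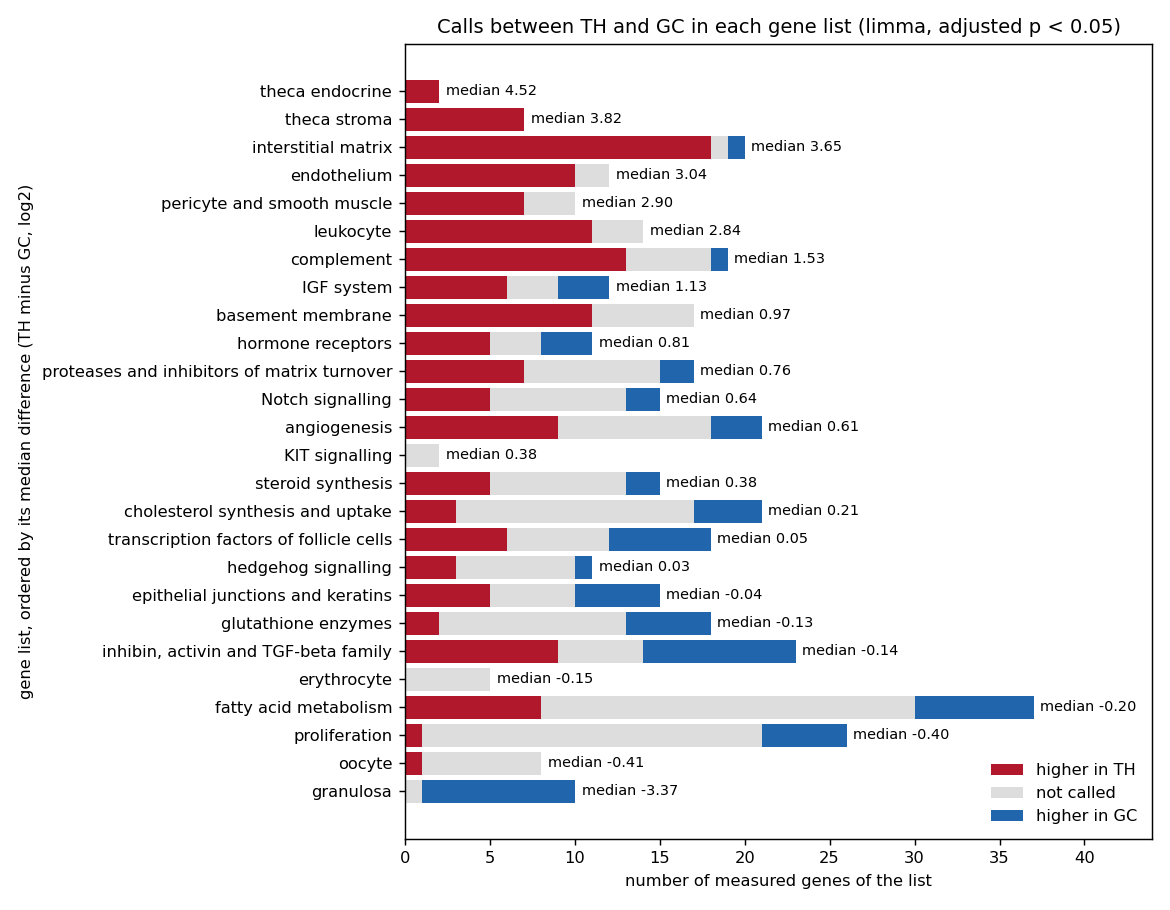
Number of measured genes of each list that were higher in TH, higher in GC, or not called (limma, adjusted p under 0.05), with the list's median difference on the log2 scale. Lists are ordered by that median, from the theca endocrine list at 4.52 to the granulosa list at −3.37, and most lists between hold genes called in both directions.

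Of the 10 granulosa markers, 9 were higher in GC (90%, against 14.5% of all genes) and none was higher in TH. Their median difference was −3.37. The orphan nuclear receptor NR5A2 was higher in GC by 5.23 (SE 0.45, adjusted p = 5.1e-07), FST, the activin-binding follistatin, by 3.55 (SE 0.25, adjusted p = 6.8e-08), and INHBA, the subunit of activin A, by 3.20 (SE 0.36, adjusted p = 7.8e-06). FOXL2, a transcription factor of granulosa identity, was not called, with −4.19, −3.78, −4.34, and −4.31 in TH and −3.30, −3.41, −4.01, and −3.40 in GC. Its levels overlapped between the groups, and it was called as higher in GC with the replicate number as a block over the 8 arrays (adjusted p = 0.049). Of the theca markers, both endocrine genes and all 7 stroma genes were higher in TH. TCF21, a transcription factor of mesenchymal cells, stood at 4.00, 4.78, 4.64, and 4.98 in TH and at −1.08, 1.33, 0.15, and −2.20 in GC. The groups did not overlap, and the difference was 5.05 (SE 0.60, adjusted p = 1.3e-05).

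Granulosa markers were also measured on the TH arrays, and markers of the theca side on the GC arrays. FSHR reached 1.49, 3.43, 1.59, and 3.74% of the mean GC level on the TH arrays, and NR5A2 1.37, 3.08, 1.57, and 7.63%. Other granulosa markers lay higher there, with AMH at 33.8, 20.2, 20.8, and 41.6%, HSD17B1 at 24.8, 16.3, 18.8, and 38.8%, INHA at 63.2, 33.4, 48.2, and 38.7%, and FOXL2 at 63.3, 84.2, 57.3, and 58.3%. On the GC arrays, the endothelial genes EMCN and ROBO4 stood at 0.398, 4.25, 2.56, and 0.362% and 0.389, 4.93, 2.07, and 0.722% of the mean TH level, and RGS5, a pericyte gene, at 0.629, 2.40, 2.20, and 0.534%. The EMCN values of GC replicates 1 and 4 lay below the lowest signals well above background of those arrays. For EMCN, ROBO4, and RGS5, GC replicates 2 and 3 were the higher pair, and the same pair was higher for COL1A1, at 3.48, 14.9, 11.7, and 2.10%, and for INSL3, at 6.12, 21.9, 18.2, and 6.95%. The order was not the same for all genes or lists. The highest GC level of the 7 theca stroma markers was replicate 3 in 3 and replicates 2 and 4 in 2 each. PDGFRA, of that list, stood at 5.79, 13.6, 24.8, and 27.3%. In the 10 endothelial markers higher in TH, it was replicate 2 in 5, replicates 1 and 3 in 2 each, and replicate 4 in 1. In the 11 leukocyte markers higher in TH, it was replicate 3 in 5, replicate 4 in 4, and replicates 1 and 2 in 1 each. TYROBP stood at 7.59, 16.7, 15.3, and 49.9%. On the CC arrays, which were taken from inside the follicle, INSL3 lay at 5.63 to 8.07% and COL1A1 at 3.33 to 6.06% of the TH mean. On the summed level of all measured markers of a list, the theca stroma list ran from 8.04 to 8.22 on the TH arrays, from 3.01 to 5.13 on the GC arrays, and from 2.76 to 3.41 on the CC arrays, and all 7 genes were well above background on every array of these groups.

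The endothelial list summed to between 4.32 and 4.97 in TH and between 0.18 and 1.17 in GC, where 8 to 10 of its 12 genes were well above background. The pericyte and smooth muscle list ran from 7.77 to 7.95 in TH and from 3.36 to 4.70 in GC, and the leukocyte list from 3.36 to 4.24 and from −0.22 to 1.60. On the CC arrays, the endothelial list ran from −1.04 to −0.29 and the leukocyte list from −0.89 to 1.235. The oocyte arrays gave 1.80 to 2.35 for the endothelial list and 3.77 to 4.07 for the leukocyte list. Such a sum is thus not by itself a measure of the cells that a list is named for. The granulosa list ran from 7.39 to 8.19 in TH, with 7 to 9 of its 10 genes well above background, and from 8.97 to 10.2 in GC. Each sum adds intensities before the log2 is taken, so genes with bright probes weigh most in it. On the TH arrays, INHA carried most of the sum of the granulosa list. Whether these marker levels came from cells of the other layer was not tested, nor was the part of such cells in the differences of other genes. Without GC replicates 2 and 3, a fit chosen after the data were seen, 2129 genes were higher in TH and 2623 in GC.

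**Figure D3:**
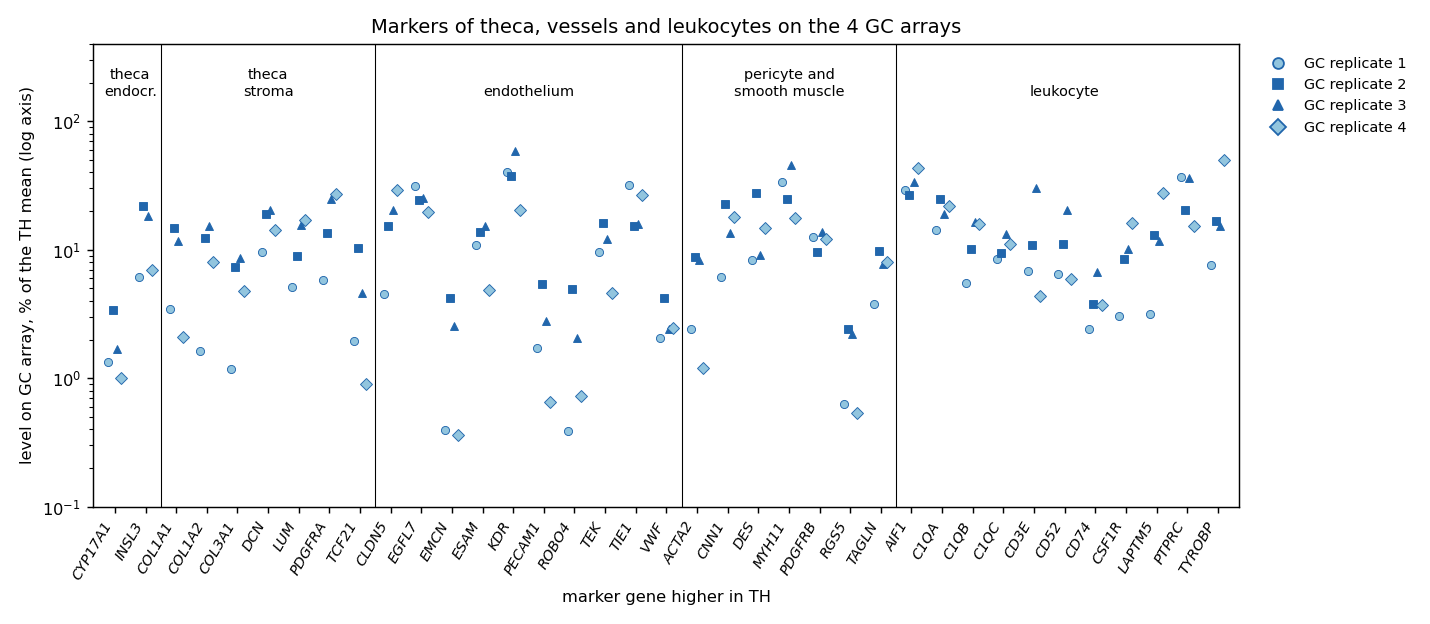
Level of each marker that was higher in TH on the 4 GC arrays, as a percentage of the mean TH level (log axis), grouped by marker list. GC replicates 2 and 3 (dark symbols) lie above replicates 1 and 4 (light symbols) for EMCN, RGS5, and COL1A1, for example, but not for TYROBP or AIF1, in which replicate 4 is the highest.

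Steroid synthesis differed between the layers at particular steps. Of 15 measured genes, 5 were higher in TH, 2 were higher in GC, and 8 were not called. The shares in TH and GC were 33.3 and 13.3%, against 11.8 and 14.5% of all genes. STAR, which carries cholesterol into mitochondria, stood at 2.57, 2.55, 1.91, and 2.06 in TH and at −2.35, −0.10, 0.97, and 1.49 in GC. The TH arrays lay close together above a wide range of GC arrays, and the difference was 2.27 (SE 0.64, adjusted p = 0.016). The call was lost in a fit of the 8 arrays alone (adjusted p = 0.055) and with the replicate number as a block over the 8 arrays (adjusted p = 0.083). CYP11A1, which cuts the side chain of cholesterol in the first enzymatic step, stood at 3.90, 3.66, 3.78, and 4.98 in TH and at 1.20, 0.43, 1.94, and 3.80 in GC. The highest GC array, replicate 4, lay within the TH range, and the difference was 2.24 (SE 0.55, adjusted p = 0.0062). Without GC replicates 2 and 3 it was 1.58 and not called (adjusted p = 0.084). FDX1, the ferredoxin that passes electrons to CYP11A1, was higher in TH by 2.36 (SE 0.19, adjusted p = 2.4e-07) without overlap.

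The next enzyme of the pathway, 3β-hydroxysteroid dehydrogenase (HSD3B in the files), was not called. It stood at 5.86, 5.50, 5.47, and 4.99 in TH and at 2.97, 3.94, 4.23, and 5.92 in GC (adjusted p = 0.053). GC replicate 4 was above every TH array and the other 3 GC arrays were below all of them. Without that array HSD3B was higher in TH by 1.75 (adjusted p = 2.7e-04), and without TH replicate 4 by 1.35 (adjusted p = 0.049). HSD17B12, a reductase also active on fatty acids, was higher in TH by 1.22 (SE 0.14, adjusted p = 7.8e-06), and HSD17B1, which reduces oestrone to oestradiol, was higher in GC by 2.10 (SE 0.35, adjusted p = 2.8e-04). Together with CYP19A1 it made up the steps that were higher in GC. The sterol carrier and cofactor genes TSPO, CYB5A, FDXR, and POR differed by 0.47, 0.38, −0.15, and −0.96, and the transcription factor NR5A1 by 0.34. None of them was called. Without GC replicate 4, TSPO was higher in TH by 0.95 (adjusted p = 0.0099), and without GC replicate 3, CYB5A by 0.68 (adjusted p = 0.015). POR was called as higher in GC with the replicate number as a block over the 8 arrays (adjusted p = 0.0066). GC replicate 4 held the highest GC level of 11 of the 15 genes, and of 8297 of all 22550 genes.

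Hormone receptors were called in both directions. LHCGR, the receptor of LH, stood at −0.44, −1.07, −0.92, and −1.93 in TH and at −7.26, −3.97, −5.84, and −6.94 in GC, where it was well above background on 2 of 4 arrays. The groups did not overlap, and the difference was 4.91 (SE 0.66, adjusted p = 4.4e-05). RXFP2, the receptor of INSL3, stood at −1.58, −3.45, −2.47, and −3.14 in TH and at −6.12, −6.15, −5.52, and −5.95 in GC. TH was higher on every array, by 3.28 (SE 0.33, adjusted p = 2.4e-06), so that the INSL3 hormone and its receptor were both higher in TH. The GC levels of RXFP2 lay below the lowest signals well above background of their arrays (−5.22, −5.11, −4.97, and −4.84). The size of its difference is therefore uncertain. PRLR, the prolactin receptor, was detected above background by the 4 TH arrays and by no GC array, so TH exceeded GC at least 1.76-fold (adjusted p = 0.02). The growth hormone receptor GHR and the glucocorticoid receptor (GR-A in the files) were higher in TH by 1.24 (SE 0.14, adjusted p = 1.0e-05) and by 1.47 (SE 0.47, adjusted p = 0.031). The call of PRLR was lost without TH replicate 1 or GC replicate 2 or 4 (adjusted p = 0.055 to 0.071), and that of GR-A without any of TH replicates 1 to 3 or GC replicates 1, 2, or 4 (0.052 to 0.094).

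In the opposite direction, ESR2, the oestrogen receptor β, stood at −4.87, −3.99, −4.30, and −4.62 in TH and at −0.30, −0.87, −1.40, and −0.93 in GC. GC was higher on every array, by 3.57 (SE 0.25, adjusted p = 6.7e-08). AMHR2, the receptor of anti-Müllerian hormone, was detected above background by no TH array and by the 4 GC arrays, so GC exceeded TH at least 3.51-fold (adjusted p = 1.1e-05). The progesterone receptor PGR was not called, with a difference of 0.81, nor was the oestrogen receptor α ESR1, which was well above background on 1 TH array and on no GC array. In the fit with the replicate number as a block over the 8 arrays, PGR was called as higher in TH (adjusted p = 0.023). Of the 11 measured receptors, 5 were thus higher in TH and 3 in GC (45.5 and 27.3%, against 11.8 and 14.5% of all genes).

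**Figure D4:**
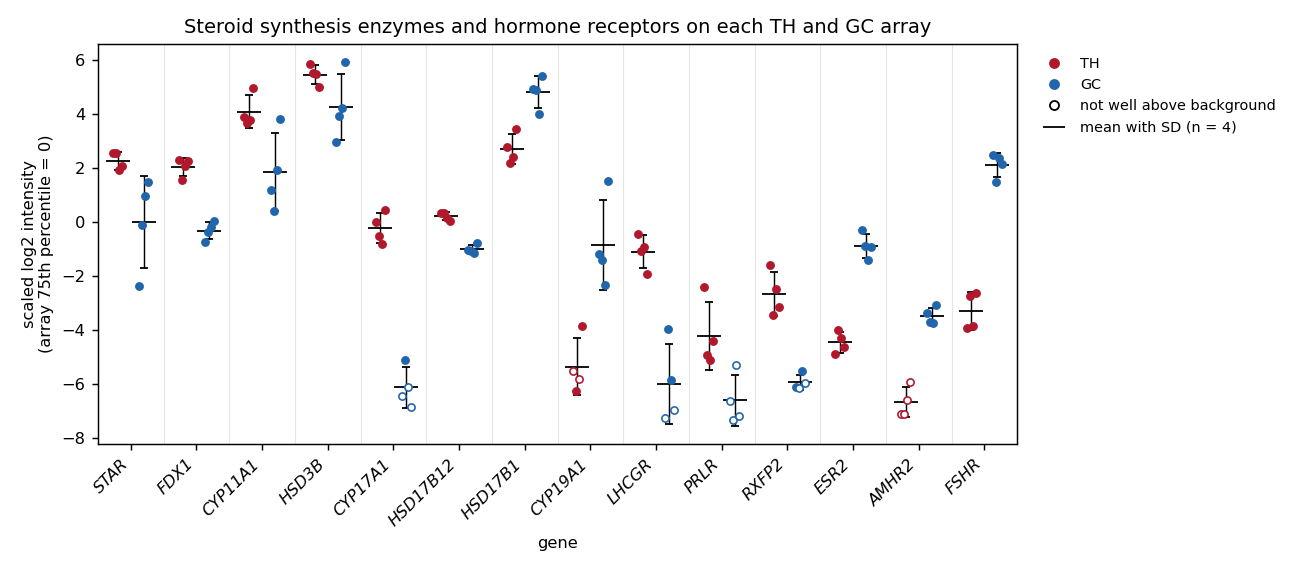
Scaled log2 intensity of steroid synthesis enzymes and hormone receptors on the 4 TH and 4 GC arrays (points; open points were not well above background; bars, mean ± SD). LHCGR and CYP17A1 lie higher in TH and FSHR and CYP19A1 higher in GC without overlap, whereas GC replicate 4 reaches into or above the TH range for CYP11A1 and HSD3B.

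The inhibin, activin, and transforming growth factor β (TGF-β) family contained genes of both layers. Of 23 measured members, 9 were higher in TH and 9 in GC (39.1% each, against 11.8 and 14.5% of all genes). Among the granulosa hormones, INHBA stood at 4.15, 4.03, 3.67, and 4.49 in TH and at 7.45, 6.45, 6.60, and 8.63 in GC, and FST at 3.96, 3.73, 3.29, and 4.33 and 7.65, 6.89, 7.09, and 7.86. GC replicate 4 was the highest of the 8 arrays for both, and the groups did not overlap. AMH, the anti-Müllerian hormone, was higher in GC by 1.85 (SE 0.31, adjusted p = 3.2e-04), and INHBB, the subunit of activin B, was at least 3.35-fold higher there (adjusted p = 3.0e-05). INHA, the subunit common to the inhibins, was bright in both layers, at 7.42 ± 0.40 in TH and at 8.59 ± 0.45 in GC (SD, n = 4). GC replicate 2 lay just inside the TH range, and GC was higher by 1.17 (SE 0.25, adjusted p = 0.0023).

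Of the TGF-β ligands, TGFB3 and TGFB2 were higher in TH. TGFB3 stood at 1.52, 1.56, 1.80, and 1.55 in TH and at −3.40, −2.20, −2.41, and −2.94 in GC. The TH arrays were within a narrow range far above GC, and the difference was 4.35 (SE 0.24, adjusted p = 7.5e-09). For TGFB2, TH exceeded GC at least 2.50-fold (adjusted p = 3.0e-06), whereas TGFB1 was not called, with a difference of 0.04. The type II receptor TGFBR2 was higher in TH by 4.32 (SE 0.46, adjusted p = 4.5e-06), and the type I receptor TGFBR1 was not called, at −0.14.

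The bone morphogenetic proteins were divided. BMP4 stood at −0.79, −1.26, −0.85, and −0.81 in TH and at −5.17, −4.17, −2.53, and −1.94 in GC. The groups did not overlap, GC replicates 3 and 4 were above replicates 1 and 2, and the difference was 2.53 (SE 0.61, adjusted p = 0.0058). For BMP6, TH exceeded GC at least 1.52-fold (adjusted p = 6.5e-07). BMP2 was at −3.17, −4.03, −2.95, and −3.72 in TH and at −3.00, −1.35, −0.39, and 0.55 in GC, with GC replicate 1 inside the TH range and a higher mean in GC by 2.42 (SE 0.66, adjusted p = 0.012). The call was lost without GC replicates 2 and 3 (adjusted p = 0.086). Of the receptors, ACVR1 and BMPR1A (BMPR-IA in the files) were higher in TH by 2.11 (SE 0.14, adjusted p = 3.6e-08) and 0.95 (SE 0.14, adjusted p = 1.1e-04), and ACVR2B and BMPR1B higher in GC by 1.64 (SE 0.25, adjusted p = 1.6e-04) and 0.79 (SE 0.24, adjusted p = 0.025), the latter with overlapping arrays and not called without TH replicate 1 or 2 or GC replicate 3 (adjusted p = 0.065 to 0.083).

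Of 12 measured genes of the insulin-like growth factor (IGF) system, 6 were higher in TH and 3 in GC. The shares were 50 and 25%, against 11.8 and 14.5% of all genes. IGF2, a growth factor of the follicle wall, stood at 5.67, 5.10, 5.49, and 5.05 in TH and at −0.01, 2.79, 1.86, and −0.35 in GC. GC replicates 2 and 3 were the higher GC arrays, as for COL1A1, and the difference was 4.26 (SE 0.61, adjusted p = 7.5e-05). The type 1 receptor that IGF2 binds (IGFR1 in the files) went the other way, with −3.85, −4.25, −4.23, and −2.61 in TH and −1.72, −0.58, −1.73, and −0.16 in GC. The groups did not overlap, and GC was higher by 2.69 (SE 0.61, adjusted p = 0.0037). The IGF2 scavenger receptor IGF2R differed by −0.04 and was not called.

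The binding proteins were divided between the layers. IGFBP4 stood at 4.12, 3.52, 3.70, and 3.46 in TH and at −1.45, −0.70, −0.86, and −1.21 in GC, and IGFBP3 at 0.92, 0.71, 1.06, and 2.06 and −3.51, −2.14, −3.85, and −3.96. Both were higher in TH on every array, by 4.75 (SE 0.34, adjusted p = 9.3e-08) and 4.56 (SE 0.39, adjusted p = 4.9e-07), and IGFBP6 was higher by 4.38 (SE 0.32, adjusted p = 1.2e-07). IGFBP2 and IGFBP5 were higher in GC by 2.38 (SE 0.60, adjusted p = 0.0073) and 1.53 (SE 0.47, adjusted p = 0.025), and in both genes the groups overlapped. IGFBP5 was not called without TH replicate 1 or GC replicate 3 or 4 (adjusted p = 0.070 to 0.083), and neither was called without GC replicates 2 and 3 (adjusted p = 0.080 and 0.19). STC1, an inhibitor of the protease that cleaves IGFBP4, was higher in TH by 2.11 (SE 0.41, adjusted p = 0.0012), and that protease, PAPPA, was not called, at 0.15 and well above background on 2 TH and 2 GC arrays. The gene named IGF-I in the files was higher in TH by 2.23 (SE 0.45, adjusted p = 0.0016), but by its brightest probe alone the difference was −0.28 and was not called. Leaving out GC replicates 2 and 3 left 1 gene of the list higher in GC in place of 3.

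Hedgehog ligands are made by granulosa cells and received by theca cells in the textbook account of the follicle. IHH, the Indian hedgehog ligand, stood at −1.66, 0.23, −2.97, and −0.28 in TH and at 5.14, 5.29, 3.76, and 5.21 in GC. All GC arrays were far above all TH arrays. Among named genes measured on at least 3 arrays of both groups, it had the largest difference in favour of GC, at 6.02 (SE 0.53, adjusted p = 6.7e-07), which is 65.0-fold. GLI1, a transcription factor that is itself induced by hedgehog signals, stood at 1.35, 1.57, 1.04, and 1.30 in TH and at −4.00, −2.16, −3.47, and −4.41 in GC. TH was higher on every array, by 4.83 (SE 0.36, adjusted p = 1.3e-07). HHIP, a decoy receptor that is another target of the pathway, was well above background on no GC array, with TH at least 2.88-fold above GC (adjusted p = 3.3e-08).

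The main receptor PTCH1 was not called, with −4.75, −4.32, −5.14, and −5.11 in TH and −5.97, −4.88, −5.73, and −5.61 in GC. Its arrays overlapped. The transducer SMO, the ligand DHH, and the inhibitor SUFU were not called either, with differences of −0.31, −0.38, and −0.62, and the ligand SHH and the factor GLI2 were well above background on none of the 8 arrays. Without GC replicate 1, SUFU was higher in GC by 0.78 (adjusted p = 0.039). The block over the 8 arrays called PTCH1 as higher in TH (adjusted p = 0.035) and SUFU as higher in GC (adjusted p = 0.047). In all, 3 of 11 measured hedgehog genes were higher in TH and 1, the ligand, in GC (27.3 and 9.09%, against 11.8 and 14.5% of all genes).

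In the Notch pathway, which passes signals between touching cells, 5 of 15 measured genes were higher in TH and 2 in GC (33.3 and 13.3%, against 11.8 and 14.5% of all genes). The target genes of the pathway pointed in opposite directions. HEYL stood at 1.99, 1.73, 1.82, and 2.40 in TH and at −4.28, −2.64, −1.78, and −2.52 in GC, and HEY2 at −2.59, −3.32, −2.45, and −2.75 and 0.13, 0.14, 0.24, and 0.12. HEYL was higher in TH by 4.79 (SE 0.45, adjusted p = 1.2e-06) and HEY2 higher in GC by 2.93 (SE 0.18, adjusted p = 1.5e-08), both without overlap. The 4 GC arrays lay close together for HEY2, with replicate 3 the highest. The ligand JAG1 and the target HES1 were higher in TH by 2.61 (SE 0.54, adjusted p = 0.0017) and 1.80 (SE 0.30, adjusted p = 3.4e-04). The receptors NOTCH1, NOTCH3, and NOTCH4 were not called, whereas NOTCH2 was higher in TH by 0.73 (SE 0.15, adjusted p = 0.0015). KIT and its ligand KITLG, a receptor and ligand of the follicle, were called by limma in neither direction, with differences of 0.49 and 0.28, and neither had an unadjusted p under 0.05. Without TH replicate 4, KIT was higher in TH by 0.72 (adjusted p = 0.049) and NOTCH4 by 0.98 (adjusted p = 0.031). NOTCH3, which was well above background on no GC array, was then called as higher in TH as well (adjusted p = 0.021).

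**Figure D5:**
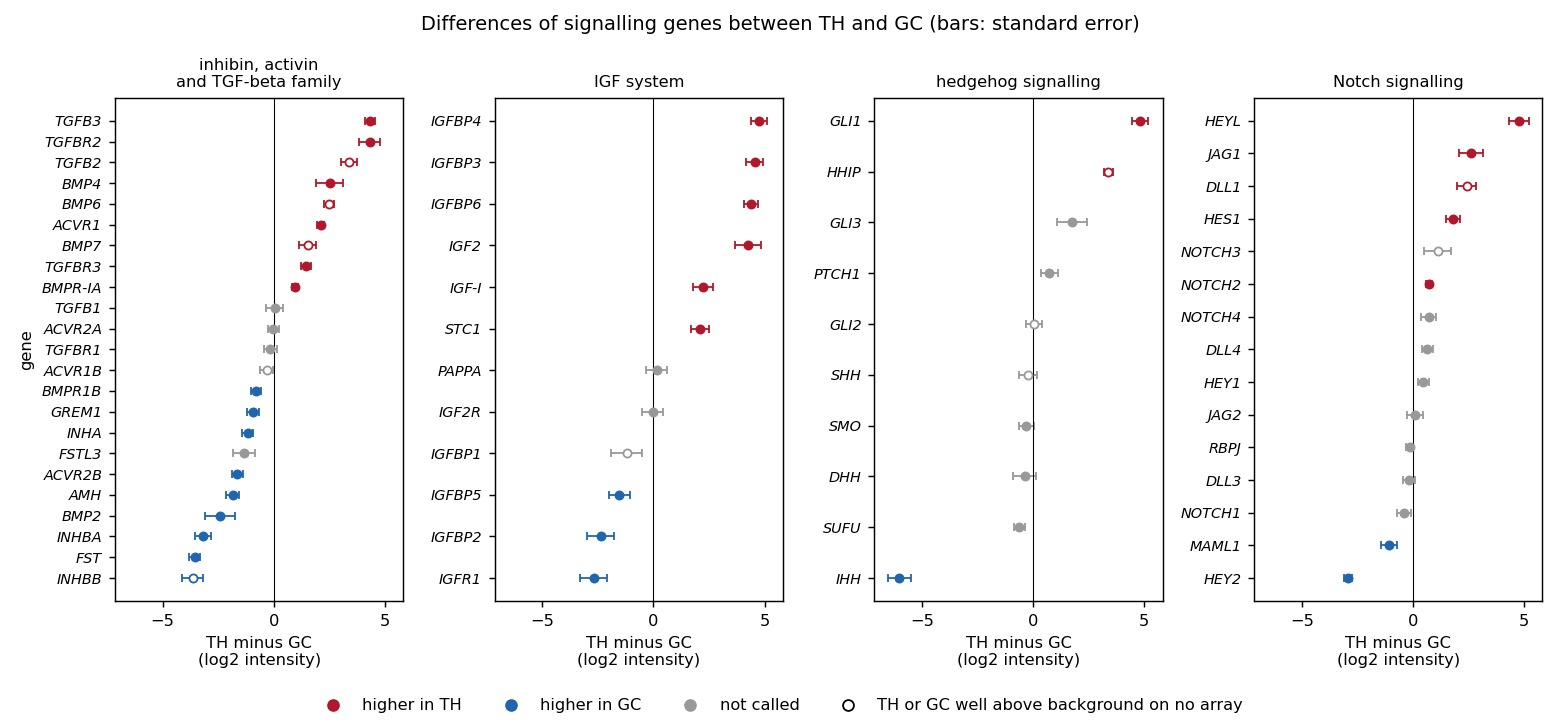
Difference between TH and GC (TH minus GC, log2 intensity, bars are SE) for measured genes of 4 signalling lists, with open points where TH or GC was well above background on no array. Ligands, receptors, and targets of the same list lie on both sides of 0, for example IHH at −6.02 and GLI1 at 4.83.

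The extracellular matrix set the layers apart in number. Of 20 genes of the interstitial matrix, 18 were higher in TH (90%, against 11.8% of all genes). The median difference of the list was 3.65, against −0.225 for all genes. BGN, a small proteoglycan, stood at 6.54, 6.29, 6.44, and 6.32 in TH and at −0.36, 2.09, 1.81, and −2.03 in GC, and MGP, an inhibitor of calcification, at 8.66, 8.22, 8.68, and 7.96 and 2.77, 5.29, 4.47, and 0.28. In both, TH lay within a narrow range and GC replicates 2 and 3 were above replicates 1 and 4. The differences were 6.02 (SE 0.70, adjusted p = 1.0e-05) and 5.18 (SE 1.00, adjusted p = 0.0011). ELN, the elastin gene, was higher in TH by 5.76 (SE 0.69, adjusted p = 1.4e-05), and COL3A1, a fibrillar collagen, by 4.52 (SE 0.69, adjusted p = 1.4e-04). The count was 17 without GC replicates 2 and 3.

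The exceptions were VCAN and POSTN. VCAN, the hyaluronan-binding proteoglycan versican, stood at −2.83, −2.53, −2.57, and −2.85 in TH and at 0.95, 0.66, −0.16, and 0.42 in GC. GC was higher on every array, by 3.16 (SE 0.23, adjusted p = 9.1e-08), which is 8.95-fold. POSTN, periostin, was not called, at −0.35, −1.70, −1.08, and −0.48 in TH and 0.31, 0.08, −1.01, and 1.09 in GC.

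In the basement membrane, the sheet between the layers, 11 of 17 genes were higher in TH and none in GC. The share higher in TH was 64.7%, against 11.8% of all genes. LAMA2, a laminin chain, stood at −0.68, −1.20, −0.81, and −0.97 in TH and at −5.51, −6.06, −6.05, and −6.98 in GC, where it was well above background on 1 array. TH was higher by 5.23 (SE 0.28, adjusted p = 5.8e-09). LAMA4, the laminin chain of vessel walls, and NID1, a linker of laminin to collagen, were well above background on no GC array and were at least 8.93-fold and 11.6-fold higher in TH (adjusted p = 1.4e-07 and 3.1e-07). The widespread chains COL4A1 and COL4A2 were higher in TH by 3.59 (SE 0.23, adjusted p = 2.6e-08) and 3.76 (SE 0.41, adjusted p = 5.6e-06). COL4A3, COL4A4, LAMA1, LAMC1, and HSPG2 were not called, with differences of −0.50, −0.16, 0.42, 0.31, and −0.41. AGRN, COL18A1, and LAMA5 were called with differences of 0.97, 0.96, and 0.96, and by its brightest probe alone AGRN differed by −0.05. AGRN kept its call without TH replicate 1 or GC replicate 1, and COL18A1 without GC replicate 2, and both lost it without any of their other arrays (adjusted p = 0.054 to 0.135). With the replicate number as a block, AGRN was not called (adjusted p = 0.052 over 16 arrays and 0.157 over 8). Over the 8 arrays, the block also lost the call of LAMA5 (adjusted p = 0.065) and called COL4A3 as higher in GC (adjusted p = 0.038). Without GC replicate 4, COL4A3 was higher in GC by 0.65 (adjusted p = 0.031) and LAMC1 higher in TH by 0.50 (adjusted p = 0.014).

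Among 17 genes of matrix turnover, 7 were higher in TH and 2 in GC (41.2 and 11.8%, against 11.8 and 14.5% of all genes). ADAMTS1, a protease that cuts versican, stood at 4.90, 5.74, 5.29, and 4.93 in TH and at −0.03, 1.64, 1.45, and 0.94 in GC. TH was higher on every array, by 4.21 (SE 0.41, adjusted p = 1.7e-06), so the protease and its substrate VCAN were higher in opposite layers. MMP2, a gelatinase, and TIMP3, an inhibitor of such proteases, were higher in TH by 4.03 (SE 0.58, adjusted p = 8.6e-05) and 2.86 (SE 0.32, adjusted p = 6.3e-06). SERPINE2, an inhibitor of plasminogen activators, stood at 0.44, 1.11, 0.51, and 0.91 in TH and at 3.98, 3.72, 3.51, and 3.84 in GC. GC was higher by 3.02 (SE 0.16, adjusted p = 6.5e-09) without overlap. Of the activators, PLAT was not called, at 0.73, and PLAU was higher in TH by 1.08 (SE 0.31, adjusted p = 0.017), a call lost without GC replicate 1 or 3 (adjusted p = 0.063 and 0.052) and with the replicate number as a block over the 8 arrays (0.070). The counts of this list fell to 4 and 1 when GC replicates 2 and 3 were left out.

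Genes of blood vessels were higher in TH. Of 12 endothelial markers, 10 were higher in TH and none in GC, and of 10 pericyte and smooth muscle markers, 7 and none. The shares higher in TH were 83.3 and 70%, against 11.8% of all genes. EMCN, a sialomucin of venous and capillary endothelium, stood at 1.79, 1.45, 2.02, and 1.15 in TH and at −6.37, −2.95, −3.69, and −6.51 in GC. The TH arrays lay far above, by 6.48 (SE 0.69, adjusted p = 4.4e-06). PECAM1, the platelet and endothelial adhesion molecule, stood at 0.09, −0.09, 0.63, and 0.37 in TH and at −5.61, −3.96, −4.91, and −7.00 in GC, and both genes were well above background on 2 GC arrays. RGS5, of pericytes, and ACTA2, the smooth muscle actin, were higher in TH by 6.44 (SE 0.58, adjusted p = 8.0e-07) and 4.71 (SE 0.49, adjusted p = 3.8e-06). FLT1, MCAM, and CSPG4 were not called, with differences of 0.25, −0.57, and 0.14. CDH5 and NOTCH3, which were not called either, were well above background on 1 and 3 TH arrays and on no GC array. MCAM was higher in GC by 0.81 without TH replicate 4 (adjusted p = 0.024).

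Among 21 angiogenesis genes, 9 were higher in TH and 3 in GC (42.9 and 14.3%, against 11.8 and 14.5% of all genes). With another background correction, normexp, 4 were higher in TH and 3 in GC. The median difference of the list was then −0.042 in place of 0.609, and TIE1 was not called. The receptors TEK, TIE1, and KDR were higher in TH by 3.38 (SE 0.31, adjusted p = 1.0e-06), 2.23 (SE 0.38, adjusted p = 3.9e-04), and 1.45 (SE 0.42, adjusted p = 0.018). FGF1, a growth factor for endothelium, stood at −0.64, −1.71, −0.72, and −1.30 in TH and at −5.98, −5.16, −4.80, and −6.24 in GC. TH was higher on every array, by 4.45 (SE 0.58, adjusted p = 3.2e-05). The ligands PGF, ANGPT2, and VEGFC were higher in GC by 2.59 (SE 0.52, adjusted p = 0.0014), 1.79 (SE 0.49, adjusted p = 0.012), and 0.92 (SE 0.19, adjusted p = 0.0022), and VEGFA, the main vascular growth factor, was not called, with −3.75, −3.24, −3.35, and −3.74 in TH and −2.84, −3.21, −3.76, and −3.18 in GC. ANGPT2 and its receptor TEK, and VEGFC and its receptor KDR, were thus higher in opposite layers. The groups overlapped in PGF and KDR, and KDR was not called without TH replicate 1 or 3 or GC replicate 4 (adjusted p = 0.056 to 0.061). Without GC replicates 2 and 3 ANGPT2 was not called (adjusted p = 0.15).

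Leukocyte genes were higher in TH in 11 of 14 cases (78.6%, against 11.8% of all genes) and in none in GC. CD74, the invariant chain of antigen-presenting cells, stood at 0.40, −0.36, 0.11, and 0.71 in TH and at −5.15, −4.52, −3.67, and −4.53 in GC. All TH arrays lay above all GC arrays, by 4.68 (SE 0.67, adjusted p = 7.5e-05). CSF1R, the receptor of the macrophage growth factor, and CD3E, of T cells, were higher in TH by 3.63 (SE 0.51, adjusted p = 6.0e-05) and 3.33 (SE 0.57, adjusted p = 3.7e-04). PTPRC, the common leukocyte antigen, was detected above background by the 4 TH arrays and by no GC array, with TH at least 1.94-fold above GC (adjusted p = 0.0069). CD14, of monocytes, was not called, with −0.83, −1.24, −1.14, and −0.41 in TH and −4.52, −3.33, −2.88, and −0.77 in GC. GC replicate 4 lay within the TH range and the other 3 GC arrays below it. CD14 was higher in TH by 2.67 without GC replicate 4 (adjusted p = 0.0046), and by 1.97 with the replicate number as a block (adjusted p = 0.045). TYROBP was called at 2.50 (SE 0.73, adjusted p = 0.019) and AIF1 at 1.61 (SE 0.51, adjusted p = 0.03). The call of TYROBP was lost without GC replicate 1 or TH replicate 4 (adjusted p = 0.067 and 0.059), and that of AIF1 without any array other than TH replicate 2 and GC replicate 4 (0.051 to 0.082) and with the block (0.053). The count was 9 of 14 without GC replicates 2 and 3.

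Red cell genes were measured as markers of blood. None of the 5 measured genes was called by limma, and 1 of them, HBM, was under 0.05 before adjustment. HBA stood at 4.26, 3.77, 4.56, and 3.55 in TH and at 4.40, 3.84, 4.86, and 3.97 in GC. Replicate 3 was the highest array of both groups. HBM was higher in GC by 0.65 to 0.67 without TH replicate 2 or 3 or GC replicate 2 (adjusted p = 0.038 to 0.049), and the analysis of variance of the study's methods called none of the red cell genes. HBB was well above background on the 4 TH arrays and on 1 GC array. The CC arrays, from inside the follicle, held HBA at 151, 291, 220, and 278% of the TH mean and HBM at 918, 739, 965, and 1265%. HBB lay lower there, at 31.1, 23.6, 22.9, and 20.3%. The red cell genes thus did not move together over the cell types, and whether their levels came from blood was not tested. Of the 8 oocyte markers, GDF9 was well above background on no TH array and on 2 GC arrays, OOSP1 on 1 GC array, and ZP2, a zona pellucida glycoprotein, was the exception to the absence of calls. It stood at −2.19, −2.38, −1.36, and −2.74 in TH and at −4.15, −5.74, −4.08, and −5.52 in GC, so TH was higher by 2.70 (SE 0.54, adjusted p = 0.0014).

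Complement, which is made by many stromal cells and by macrophages, was higher in TH in 13 of 19 genes and higher in GC in 1, CD46. The shares were 68.4 and 5.26%, against 11.8 and 14.5% of all genes. The call of CD46 was lost in a fit of the 8 arrays alone (adjusted p = 0.054) and with the block over them (adjusted p = 0.065). C7, of the terminal complex, stood at 1.84, 1.33, 1.84, and 2.69 in TH and at −5.20, −2.57, −3.59, and −7.18 in GC. TH exceeded GC on every array, by 6.56 (SE 0.72, adjusted p = 5.7e-06). The protease C1S was higher in TH by 4.05 (SE 0.47, adjusted p = 1.1e-05). The subunits C1QA, C1QB, and C1QC, which macrophages secrete and which are also among the leukocyte markers, were higher in TH by 2.35, 3.18, and 3.26. The central component C3 was not called, at −0.66, and was well above background on 1 TH and 1 GC array. TH replicate 4 held the highest TH level of 17 of the 19 genes.

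Transcription factors marked both layers, with 6 of 18 higher in TH and 6 in GC (33.3% each, against 11.8 and 14.5% of all genes). NR2F2, an orphan nuclear receptor of mesenchymal cells, stood at 5.21, 5.36, 5.48, and 5.40 in TH and at 1.64, 2.53, 2.38, and 1.44 in GC. TH was higher by 3.37 (SE 0.22, adjusted p = 3.6e-08), and NR2F1 by 2.40 (SE 0.24, adjusted p = 2.8e-06). LHX9 and WT1, which act in the early gonad, were higher in TH by 5.04 (SE 0.34, adjusted p = 5.4e-08) and 2.22 (SE 0.35, adjusted p = 2.0e-04). On the GC side, FOXO1, a factor of follicular growth, stood at 1.01, 0.92, 1.20, and 1.04 in TH and at 3.71, 3.42, 3.72, and 3.60 in GC. The ranges were narrow and far apart, with GC higher by 2.57 (SE 0.13, adjusted p = 5.1e-09).

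EMX2 and IRX5, homeobox genes, were higher in GC by 4.16 (SE 0.55, adjusted p = 3.5e-05) and 3.08 (SE 0.18, adjusted p = 1.3e-08), whereas IRX3, of the same family as IRX5, was higher in TH by 1.83 (SE 0.28, adjusted p = 1.5e-04). RUNX2 was higher in GC by 2.81 (SE 0.35, adjusted p = 2.1e-05). GATA4, GATA6, and NR5A1, which both layers are known to use for steroid genes, were not called, with differences of 0.06, −0.75, and 0.34.

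Junction and cytoskeleton genes of epithelia were divided, 5 of 15 higher in each layer (33.3% each, against 11.8 and 14.5% of all genes). CDH2, N-cadherin, stood at −0.85, −0.04, −1.15, and −0.29 in TH and at 4.84, 4.71, 4.76, and 4.37 in GC. The GC arrays lay close together, above TH by 5.25 (SE 0.28, adjusted p = 5.8e-09), and GJA1, the connexin that couples granulosa cells, by 1.40 (SE 0.19, adjusted p = 5.0e-05). The keratins KRT8 and KRT18, partners in the same filament, stood at 1.26, 1.35, −0.46, and 1.66 and at 2.23, 1.92, 0.20, and 1.35 in TH. In GC they stood at 4.23, 5.79, 5.68, and 7.17 and at 4.41, 6.11, 4.08, and 6.42. Both were higher in GC, by 4.76 (SE 0.52, adjusted p = 5.4e-06) and 3.83 (SE 0.77, adjusted p = 0.0016), and GC replicate 4 was the highest array for both.

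The genes of this list that were higher in TH were OCLN, DSP, EPCAM, CLDN11, and CDH3. OCLN, occludin of tight junctions, stood at −0.45, −0.69, −0.22, and −0.54 in TH and at −5.30, −4.94, −4.78, and −6.12 in GC. The groups lay far apart, with TH above GC by 4.81 (SE 0.30, adjusted p = 2.2e-08). DSP, desmoplakin, and EPCAM, an epithelial adhesion molecule, were well above background on the 4 TH arrays and on no GC array, and were at least 4.56-fold and 2.86-fold higher in TH (adjusted p = 5.4e-08 and 2.3e-06). CLDN11, a claudin, and CDH3, P-cadherin, were higher in TH by 2.51 (SE 0.48, adjusted p = 9.8e-04) and 1.59 (SE 0.17, adjusted p = 4.6e-06).

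Lipid metabolism, the subject named in the title of the series, showed differences in some enzymes. Of 37 measured genes of fatty acid metabolism, 8 were higher in TH, 7 in GC (21.6 and 18.9%, against 11.8 and 14.5% of all genes), and 22 were not called. PPARG, a nuclear receptor for fatty acids, stood at −0.41, −0.51, −0.95, and −0.43 in TH and at 4.25, 3.15, 3.78, and 3.64 in GC. GC was higher on every array, by 4.28 (SE 0.21, adjusted p = 3.4e-09), which is 19.4-fold. SCD, the desaturase that makes oleic acid, was higher in GC by 2.77 (SE 0.31, adjusted p = 6.4e-06). LPL, the lipase that releases fatty acids from lipoproteins, stood at 2.82, 2.73, 3.29, and 3.46 in TH and at −0.40, 0.02, −0.30, and 0.41 in GC. Every TH array lay above every GC array, by 3.15 (SE 0.31, adjusted p = 2.0e-06).

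DGAT2, of triglyceride synthesis, and CPT1A, which admits fatty acids to mitochondria for oxidation, were higher in TH by 2.25 (SE 0.42, adjusted p = 7.7e-04) and 1.78 (SE 0.26, adjusted p = 1.0e-04), whereas CPT1B, another form of the same transferase, was higher in GC by 1.55 (SE 0.30, adjusted p = 0.001). The synthesis enzymes FASN, ACACA, and ACLY were not called, with differences of 0.23, −0.20, and −0.27, nor were the oxidation enzymes HADHA, HADHB, and ACADM, at −0.35, −0.32, and −0.12. FABP4, a carrier of fatty acids, differed by −0.64 with an SE of 1.30. The list held 5 genes higher in TH and 6 higher in GC when GC replicates 2 and 3 were left out.

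Of 21 genes of cholesterol synthesis and uptake, 3 were higher in TH, 4 were higher in GC (14.3 and 19.0%, near the 11.8 and 14.5% of all genes), and the median difference was 0.21. SCARB1, the receptor that takes up cholesterol from high-density lipoprotein, stood at 5.36, 5.30, 5.83, and 5.63 in TH and at 3.56, 3.90, 4.15, and 4.57 in GC. TH exceeded GC on every array, by 1.48 (SE 0.20, adjusted p = 4.3e-05). LSS, which closes the sterol rings, was higher in GC by 1.75 (SE 0.23, adjusted p = 3.2e-05). GC replicate 4 held the highest GC level of 18 of the 21 genes. Without that array, 6 genes of the list were higher in TH and 1 in GC, and the median difference was 0.377. Leaving out GC replicates 2 and 3 left 1 gene of the list higher in TH in place of 3.

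Glutathione enzymes, which protect against peroxides, were higher in GC in 5 of 18 cases (27.8%, against 14.5% of all genes) and in TH in 2 (11.1%, against 11.8%). GCLC, the catalytic subunit of the first enzyme of glutathione synthesis, stood at −3.38, −3.74, −3.69, and −3.95 in TH and at −0.22, −0.81, −0.42, and −0.33 in GC. Every GC array lay above every TH array, by 3.25 (SE 0.17, adjusted p = 4.6e-09), and its modifier subunit GCLM by 1.58 (SE 0.18, adjusted p = 1.1e-05). The peroxidase GPX1 was higher in GC by 2.35 (SE 0.25, adjusted p = 4.9e-06). The transferases GSTM3 and GSTM1 were higher in TH by 2.13 (SE 0.19, adjusted p = 7.6e-07) and 2.05 (SE 0.24, adjusted p = 9.2e-06), and GSTA1, a transferase of steroid-making cells, was not called, at −0.49.

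Of 26 proliferation genes, 1 was higher in TH and 5 in GC (3.85 and 19.2%, against 11.8 and 14.5% of all genes). The cyclins D, which start the cell cycle, were divided, since CCND3 stood at 3.37, 3.14, 3.17, and 3.68 in TH and at 0.69, 0.60, 0.90, and 0.86 in GC, and CCND2 at 0.61, 1.51, 1.19, and 2.77 and 3.83, 3.22, 3.51, and 4.31. CCND3 was higher in TH by 2.58 (SE 0.16, adjusted p = 1.6e-08) and CCND2 higher in GC by 2.20 (SE 0.37, adjusted p = 3.6e-04), both without overlap. PLK1, a kinase of mitosis, was higher in GC by 1.90 (SE 0.40, adjusted p = 0.0023), and MKI67, a marker of cycling cells, was not called, with −3.63, −2.70, −4.02, and −4.13 in TH and −3.23, −3.08, −3.82, and −2.23 in GC. The arrays of a group differed in this list. GC replicate 4 held the highest GC level of 23 of the 26 genes, at a median of 0.83 above the GC mean, and TH replicates 2 and 4 held the highest TH level of 11 and 14 of them. Over all 22550 genes, the median of GC replicate 4 was 0.04 above the GC mean.

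The 12 genes with the largest differences on the theca side, among named genes measured on at least 3 arrays of both groups, were led by CXCL14. CXCL14, a chemokine, stood at 5.03, 5.02, 4.48, and 4.82 in TH and at −3.93, 0.13, −0.83, and −6.85 in GC. The TH arrays lay close together, the GC arrays were spread widely with replicates 2 and 3 the higher, and the difference was 7.71 (SE 1.11, adjusted p = 8.0e-05). On GC replicate 4, the level of CXCL14 lay below that array's lowest signal well above background (−4.84), so the size of its difference is uncertain. MYOC, myocilin, was higher by 6.73 (SE 0.86, adjusted p = 2.5e-05) with the same order of the GC arrays. OTOS, COL15A1, C7, and SPARCL1 followed with differences of 6.69, 6.64, 6.56, and 6.34, and then CALCRL, the receptor of adrenomedullin, HPGD, which inactivates prostaglandins, ROBO4, PEAR1, the water channel AQP1, and OSR1, with 6.32, 6.30, 6.26, 6.23, 6.13, and 6.09. TRPC4, a cation channel, was detected above background by all TH arrays and by no GC array, and TH exceeded GC at least 18.0-fold. AGTR1, the receptor of angiotensin II, CXCL9, COX4I2, PLAC1, PRND, and SCGB3A2 were at least 16.6, 15.4, 14.0, 13.3, 12.8, and 12.6-fold higher.

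On the granulosa side, IHH was followed by CRABP2, a carrier of retinoic acid, at 0.12, 0.38, −0.55, and 0.09 in TH and 5.86, 5.80, 5.43, and 5.89 in GC. The GC arrays were close together and far above TH, and the difference was 5.73 (SE 0.20, adjusted p = 2.1e-10). CARTPT, a neuropeptide gene, stood at −0.07, 0.49, 1.58, and 0.26 in TH and at 7.11, 5.37, 7.41, and 4.29 in GC. GC was higher by 5.48 (SE 0.60, adjusted p = 6.2e-06), with GC replicates 1 and 3 above replicates 2 and 4. TPD52L1, SUSD4, PNMT, MGARP, SLC22A16, and GLDC, an enzyme of glycine cleavage, were higher in GC by 5.45, 5.43, 5.39, 5.37, 5.34, and 5.30. PNMT, the enzyme that makes adrenaline from noradrenaline, averaged −5.17 ± 0.68 on the TH arrays, 0.22 ± 1.54 on the GC arrays, and −3.02 ± 0.47 on the CC arrays (SD, n = 4).

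OXTR, the oxytocin receptor, stood at −0.02, −1.09, −0.65, and −2.13 in GC and was well above background on no TH array, so it was at least 19.9-fold higher in GC (adjusted p = 1.5e-07). IL22RA1, RGS17, CA8, SLAIN1, PCSK1, CDH10, and SCG3 were higher in GC by at least 16.7, 16.4, 15.4, 13.1, 12.4, 10.2, and 9.36-fold. PCSK1, a protease that processes prohormones, SCG3, a granin of secretory vesicles, and CARTPT are known from neuroendocrine cells. Of these, CARTPT was well above background on all 8 arrays.

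All 159 genes named here that were called between TH and GC had the same direction within each slide, and 126 and 129 of them were also called within the slide of replicates 1 and 2 and the slide of replicates 3 and 4. The slides hold the same arrays that gave the calls, and a gene without overlap must keep its direction in them. The shared direction is therefore not a separate test. The ribosomal protein genes, 78 on the array, had a median difference of 0.05, and 3 of the 78 were called, against 26.3% of all genes.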

How the data were processed

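RNA of 4 TH and 4 GC samples was extracted with Trizol, and 200 ng of total RNA was labelled with Cy3 and hybridized by the authors to a custom 60K bovine Agilent array. The scanner files deposited by the authors hold the intensity of each spot after background subtraction by Agilent Feature Extraction 10.7.3.1. The authors also deposited log2 values, which equalled the log2 median signal minus each array's median within 5.0e-09 and were used as an alternative. All value columns were matched to samples (0 were not).

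The processed intensity was taken to log2, the 75th percentile of each array was subtracted, and each gene was given the median of its spots, as in the study's methods. The analysis of variance named there was replaced by limma 3.58.1 in R 4.3.3, because all genes were tested. The fit held 16 arrays of TH, GC, CC, and oocytes, with Benjamini-Hochberg adjustment over 22550 genes. CC after maturation was left out of this fit. Of the probes, 9779 had no gene name and 734 were named by an accession. Gene names and spans are those of the array design on UMD 3.1, and symbols were updated from the RefSeq table of ARS-UCD2.0. A gene was well above background on an array if any of its probes was. Where it was so on no array of the lower group, "at least N-fold" compares the mean of the higher group with the mean, over the arrays of the lower group, of the higher of that array's lowest signal well above background and the gene's own. Values were summarised and plotted with Python 3.11.15, pandas 2.3.3, numpy 2.4.6, and matplotlib 3.10.9.

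Genes were named from lists of markers and pathways, of which the up to 4 members with the largest difference in each direction and members not called are described. Also named were the 12 genes with the largest difference in each direction among those called, without overlap, and well above background on at least 3 arrays of both groups, and the 8 with the largest bounds. The lists and the groups compared were chosen with earlier results of these data known. HBA1, HSD3B2, INSR, BMPR2, LAMB2, CDH1, TJP1, ELOVL6, LIPE, and FATP1 were not analysed here, and some other list members are counted but not reported singly here. Where nothing says that samples came from separate animals, p-values measure the spread between these samples.

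Replicate numbers were checked for pairing on the deviations of 12334 genes from the group means. TH and GC of the same number correlated at 0.152, 0.305, 0.329, and 0.427, all above the threshold of 0.1. Unmatched numbers also passed it, TH replicate 1 with GC replicate 2 at 0.203 and TH replicate 3 with GC replicate 2 at 0.104. The numbers were taken to pair the samples, which this check does not settle, and the number was used as a block in an alternative. The main fit has no such block. Other alternatives were the arrays in the fit, the slide as a block and each slide alone, quantile and median scaling, the percentile over detected probes, normexp with an offset of 50, the mean over spots, the brightest probe, a filter on dim genes, trend and robust estimates, array weights, the methods' analysis of variance with Tukey's test, a difference of at least 1, and leaving out each array. Leaving out GC replicates 2 and 3 was chosen after the data were seen. On simulated data with 200 changed genes, the TH and GC fit recovered 29% of changes of 1 and 78% of changes of 2 on the log2 scale, and called 4 and 7 unchanged genes. The real comparison called 5938 genes, and the adjustment is less strict when more genes differ. The simulated shares therefore do not give the share of differences found in the real comparison. Precision is limited by how many arrays there were.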

Additional observations from a re-analysis of the deposited data

Results flagged for a closer look

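For each gene named in the report, the 4 TH arrays and the 4 GC arrays were each tested for an array that stood apart. The measure was the gap between the highest or lowest array and its nearest neighbour as a share of the group's range. Of 424 groups, 27 (6.37%) passed, and chance flags about 1 in 20 groups. In TH, the lowest array was replicate 2 for BMP4 (0.873), FDXR (0.898), and SPARCL1 (0.890), replicate 1 for HHIP (0.864), and replicate 4 for CYB5A (0.841), GATA6 (0.901), GR-A (0.938), NOTCH3 (0.905), and TGFBR1 (0.904). The highest TH array was replicate 3 for CALCRL (0.934), GLI2 (0.846), and TGFB3 (0.858), replicate 4 for GCLM (0.834), and replicate 2 for SCD (0.923). In GC, the lowest array was replicate 2 for GPX1 (0.957), HADHA (0.924), INHA (0.911), and SUSD4 (0.910), replicate 3 for FOXL2 (0.849) and IHH (0.901), replicate 1 for COL4A1 (0.865) and PLAC1 (0.874), and replicate 4 for NOTCH3 (0.915). The highest GC array was replicate 4 for FDXR (0.956), replicate 3 for HEY2 (0.870), and replicate 2 for HHIP (0.835) and RUNX2 (0.853). GLI2 was well above background on none of the arrays, and HHIP, NOTCH3, and PLAC1 on none of the GC arrays.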

How the results depend on the processing

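Under 28 alternatives, the genes higher in TH numbered 1328 to 3121 and those higher in GC 936 to 4317, against 2671 and 3267. The counts moved by more than 1.5 times within the slide of replicates 1 and 2 (1328 and 936), within the slide of replicates 3 and 4 (1626 and 1188), and, for GC, with a difference of at least 1 (1797). Each single-slide fit holds fewer arrays. Leaving out 1 array at a time gave 2426 to 2670 genes higher in TH and 2642 to 3127 in GC. The median difference of all genes, −0.225, was −0.076 with quantile scaling, −0.336 with normexp, and −0.105 with the percentile over detected probes. Among named genes, normexp lost 9 calls and added 3. The lost calls were those of AGRN, PRLR, NOTCH2, IGF-I, PTPRC, TIE1, WT1, BMP6, and TGFB2. By the brightest probe, AGRN differed by −0.050, IGF-I by −0.275, and NOTCH1, which was not called otherwise, by 0.622 in place of −0.39. The cause was not tested. No other named gene that was called changed direction. With the replicate number as a block (the pairing), 2711 genes were higher in TH and 3400 in GC over 16 arrays, and 2633 and 3233 over the 8 arrays. Among named genes, the block over 16 arrays lost the calls of AGRN and AIF1 and added CD14, and it changed no other call. Over 8 arrays, 5 of 159 calls were lost and 7 added. Of these 159, 108 kept direction and call in every alternative fit, and 134 outside the single-slide fits. Both counts leave out the required difference of at least 1, which lost 8 calls. Signal over background limits the 4657 genes that were well above background on none of the 8 arrays.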
